A study of Macaca mulatta with 11 samples.

Results

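Genes of the complement system that connective tissue cells can make were followed in 11 cultures of mesenchymal stem cells from rhesus monkey (Macaca mulatta) bone marrow, which are plastic-adherent stromal cells. The genes were the components C1R, C1S, C3, CFB and CFD and the regulators CFI, SERPING1, CD55 and CD59. All 9 were measured, by 14 of the 22215 probe sets of an oligonucleotide array annotated with human genes, and each of the 14 carried 1 gene symbol. Probe sets of 1 symbol covered 11963 genes in all. A probe set is a group of short probes read as 1 intensity. C1R, C1S, C3, CFD, CFI and SERPING1 had 1 probe set each, CFB and CD55 had 2 each and CD59 had 4. Where a gene had several, they are numbered from the brightest (set 1) to the dimmest, and set 1 stands for the gene.

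Each culture was measured on 1 array, and the titles formed a fetal group (n = 4), an infant group (n = 4) and an adult group (n = 3). Donors of fetal arrays 1 and 2 were at gestation day 120, while those of fetal arrays 3 and 4, also titled fetal, were newborn. Infant donors were 6, 6, 3 and 5 months old (arrays 1 to 4) and adult donors 7, 7 and 8 years old (arrays 1 to 3). No treatment, genotype or allele is named for any group, and all cultures were plated, freed of non-adherent cells and grown in serum-containing medium to the second passage. Marrow of fetal-titled donors was flushed from long bones whereas that of infants and adults was aspirated, so the way of collection and the fetal group's age cannot be told apart. The labels do not say whether cultures of like age had separate donors, so p-values measured only the spread between these cultures.

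Complement is a cascade of plasma proteins that tags and lyses cells. In the classical pathway C1q binds a target and activates the proteases C1r and C1s, in the alternative pathway factor D cuts factor B bound to C3b, and both routes build convertases that cleave C3. Inhibitors in plasma and on the cell surface stop the cascade on the body's own cells. Liver makes most of the plasma proteins, and fibroblasts and marrow stromal cells are known to make several of them locally, often under control of interferons and inflammatory cytokines.

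Arrays had median intensities of 164.9 to 169.6, and pairs of arrays correlated at 0.928 to 0.983 in log2 intensity. Adult arrays 1 and 2 and infant arrays 1 and 2 stood apart on the first principal component (23.1% of the variance), from -20.46 to -16.05, with the other arrays between 6.70 and 19.48. Collagen genes of stroma were bright in every array, with COL1A1 at 14.15 to 15.12 on the log2 scale. Of 14 measured macrophage and leukocyte markers 6 read above the median of all log2 values (7.38), and PTPRC, the leukocyte common antigen, lay at 7.14 to 7.93. Immunoglobulin light chain probe sets read high in adult arrays 1 and 2, with IGLC1 at 12.82 and 13.23, whereas adult array 3 read 9.10 and no fetal or infant array exceeded 8.30. Fewer cells of a type and less RNA per cell cannot be told apart in such bulk samples.

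No member probe set passed limma's test at an adjusted p of 0.05 in any comparison of ages. Between fetal and adult arrays 0 of 14 passed, against 0.131% of all probe sets, and 1 reached an unadjusted p under 0.05, against 8.96% of all. Between infant and adult arrays the counts were 0, against 0.0180% (4 probe sets, and 9 with the replicate number as a block, none of them a member), and 2, against 6.19%. Between fetal and infant arrays they were 0, against 0% of all, and 2, against 6.87%. An F test over the 3 groups also passed 0 of 14 (0.0360% of all passed). The 2 genes with the largest differences were C1S, which read lowest in fetal and highest in adult arrays, and CFD, which read highest in infant arrays.

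**Figure D1:**
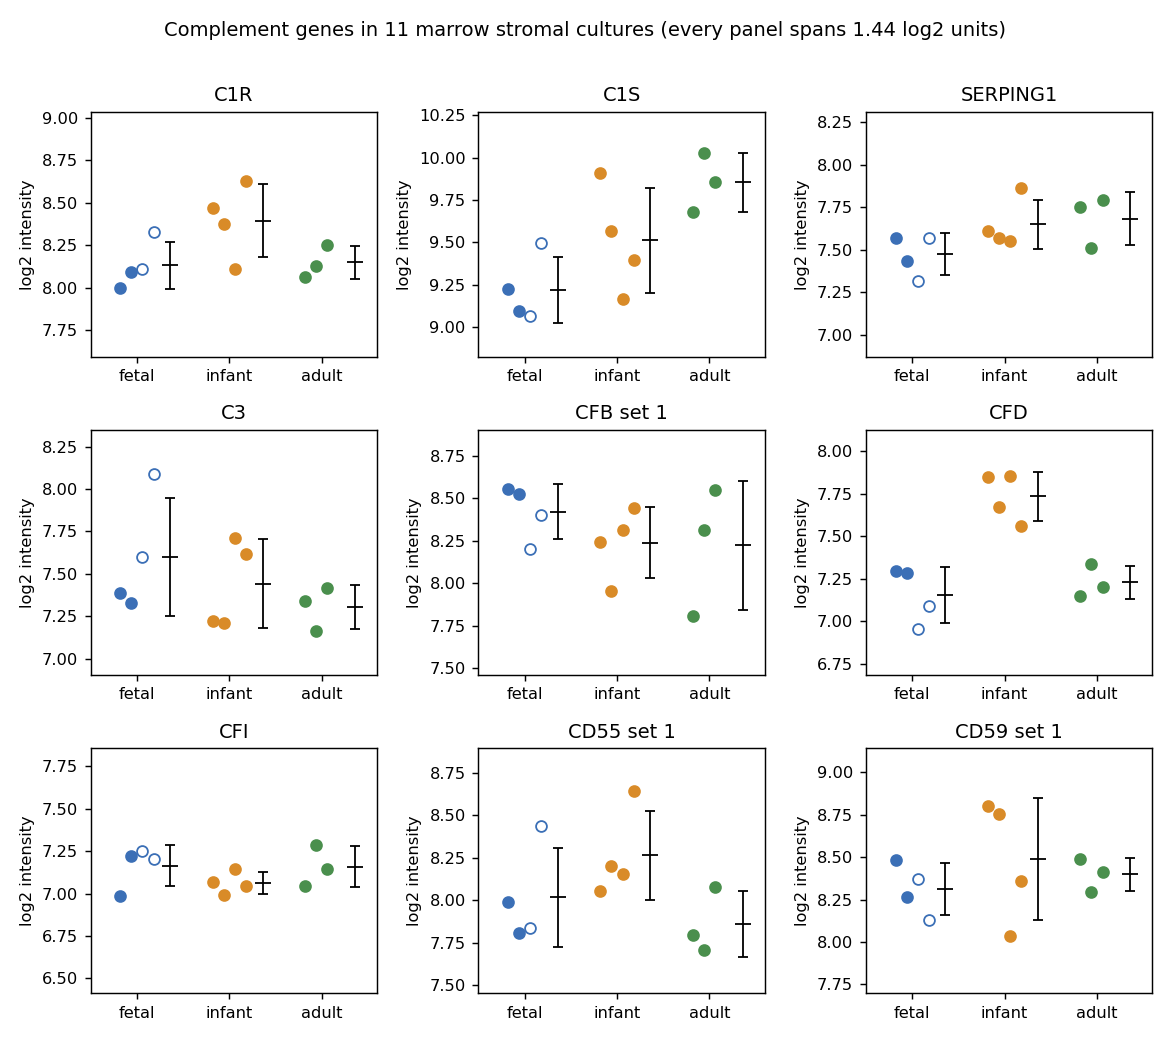
Log2 intensity (vertical axis) of the brightest probe set of each of the 9 complement genes, by age group (horizontal axis). Each point is 1 array, open points are newborn donors within the fetal group, and the bar beside each group is the mean ± SD. All 4 infant points of CFD lie above the fetal and adult points, and all 3 adult points of C1S lie above the fetal points.

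C1S encodes the protease of the C1 complex that cleaves C4 and C2. Its probe set (208747_s_at) read 9.23, 9.10, 9.07 and 9.49 in fetal arrays 1 to 4, 9.91, 9.57, 9.17 and 9.40 in infant arrays 1 to 4, and 9.68, 10.02 and 9.85 in adult arrays 1 to 3. Every adult array lay above every fetal array, and the infant arrays spread across both. Fetal, infant and adult means were 9.22 ± 0.19 (SD, n = 4), 9.51 ± 0.31 (SD, n = 4) and 9.85 ± 0.17 (SD, n = 3). The fetal-to-adult log2 difference was -0.63 (SE 0.16, 95% interval -0.98 to -0.29), which is 1.55-fold higher in adult arrays, and it did not pass the test (adjusted p = 0.179). In this contrast 194 of all probe sets had a smaller unadjusted p. Of the 14 member probe sets, 1 (C1S) had fetal and adult arrays that did not overlap, against 8.08% of all probe sets (4.41% with fetal lower). The neighbouring steps, counted as the younger minus the older group, were smaller, and neither interval excluded 0. From infant to adult the step was -0.34 (interval -0.69 to 0.005, adjusted p = 0.805). From fetal to infant it was -0.29 (interval -0.61 to 0.03, adjusted p = 0.761). Over the alternative fits described below, the first ran from -0.57 to -0.23 and the second from -0.40 to -0.06. Infant arrays 1 and 2, at 9.91 and 9.57, lay above infant arrays 3 and 4, at 9.17 and 9.40. These pairs also stood apart on the first principal component, and the part of that split in the C1S values was not tested.

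Summed intensities of B and plasma cell markers were 9762, 12560 and 2641 in adult arrays 1 to 3, 2073 to 2406 in infant and 2274 to 2320 in fetal arrays, over 12 measured of 13 listed markers. The fetal-minus-adult difference was below 0 for 8 of the 12 and above 0 for 4, and the widest were those of the light chains IGLC1 (-3.64) and IGKC (-1.42). Between fetal and adult arrays 0 of the 12 passed, and 5 were lower in fetal arrays at an unadjusted p under 0.05 (smallest adjusted p = 0.0561). Of all probe sets, 8.96% reached that unadjusted p in either direction. With adult arrays 1 and 2 left out the C1S difference stood at -0.63 (adjusted p = 0.392), from 1 adult array that was assumed to vary like the other groups and whose IGLC1 value, 9.10, was still above those of the fetal and infant arrays. Macrophage and leukocyte markers summed to 2757 to 3245 in adult and 2558 to 2868 in fetal arrays, which overlapped. Of the 14, 0 passed, 6 differences were above and 8 below 0, and FCER1G, the gamma chain of Fc receptors, had the smallest p, at -0.81 (adjusted p = 0.166). The part of these markers in the C1S values was not tested.

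C1R encodes the protease that activates C1s, and its gene lies next to C1S on rhesus chromosome 11 in the RefSeq annotation (assembly T2T-MMU8v2.0, used here for gene order only). The C1R probe set (212067_s_at) read 8.00, 8.09, 8.11 and 8.33 in fetal, 8.47, 8.37, 8.11 and 8.63 in infant, and 8.06, 8.13 and 8.25 in adult arrays. Infant arrays 1, 2 and 4 lay above every other array and infant array 3 lay among the fetal and adult values. The fetal mean was 8.13 ± 0.14 (SD, n = 4), the infant mean 8.39 ± 0.22 (SD, n = 4) and the adult mean 8.15 ± 0.10 (SD, n = 3). The fetal-to-infant difference of -0.26 (interval -0.51 to -0.01) did not pass (adjusted p = 0.705), and the fetal-to-adult difference was -0.02 (interval -0.29 to 0.25, adjusted p = 0.985). C1R and C1S had their highest group mean at different ages. Their values over the 11 arrays, which share a normalisation, correlated at r = 0.304 (rho = 0.382), and at r = 0.539 after the group means were taken off.

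SERPING1 encodes C1 inhibitor, the serpin that inactivates C1r and C1s. Its probe set (200986_at) ranged from 7.32 to 7.57 in fetal, 7.55 to 7.86 in infant and 7.51 to 7.79 in adult arrays, with means of 7.47 ± 0.12 (SD, n = 4), 7.65 ± 0.15 (SD, n = 4) and 7.68 ± 0.15 (SD, n = 3). Fetal array 3 was lowest and the groups overlapped in each comparison. Its fetal-to-adult difference was -0.21 (interval -0.46 to 0.04, adjusted p = 0.641), and the infant-to-adult difference was -0.04 (interval -0.28 to 0.21, adjusted p = 0.979).

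CFD encodes factor D (adipsin), the protease that cuts factor B, and it is best known as a product of fat cells. Its probe set (205382_s_at) read 7.85, 7.67, 7.86 and 7.56 in infant arrays 1 to 4, 7.30, 7.28, 6.95 and 7.09 in fetal arrays 1 to 4, and 7.15, 7.34 and 7.20 in adult arrays 1 to 3. All 4 infant arrays lay above every fetal and adult array, as they did for 57 of 22215 probe sets (0.257%). CFD was the 1 of 14 member probe sets whose infant and adult arrays did not overlap, against 4.98% of all (1.80% with infant higher), and the 1 of 14 whose fetal and infant arrays did not, against 3.34% of all (1.21% with fetal lower). Fetal and adult means, 7.16 ± 0.17 (SD, n = 4) and 7.23 ± 0.10 (SD, n = 3), differed by less than their replicate spread, and the infant mean was 7.74 ± 0.14 (SD, n = 4).

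Infant arrays were 1.5-fold higher than fetal arrays for CFD, a log2 difference of -0.58 for fetal minus infant (SE 0.11, 95% interval -0.81 to -0.35). The unadjusted p was 9.51e-05 and 7 probe sets had a smaller one, yet the adjusted p was 0.197, and no probe set passed in that contrast. Against adult arrays the infant arrays were 1.42-fold higher, by 0.51 (SE 0.12, interval 0.26 to 0.76, adjusted p = 0.329), where 43 probe sets had a smaller unadjusted p. The F test over the 3 groups gave an adjusted p of 0.101. Both comparisons share the infant arrays. The fetal-to-adult difference was -0.07 (interval -0.32 to 0.18, adjusted p = 0.906). The mean level of the CFD probe set, 7.39, was close to the median of all log2 values, so the signal was dim. CFD thus stood as the member of smallest p in both comparisons with infants, without a call.

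All 10 listed adipocyte markers were measured, and 0 passed in any comparison of the age groups, with adjusted p of at least 0.534. Their summed intensity was 1767 to 2082 in infant, 1723 to 1894 in fetal and 1930 to 1955 in adult arrays, so that the infant arrays overlapped both. Infant minus adult differences were above 0 for 3 of the 10 and below for 7 (median -0.07), and fetal minus infant differences were above 0 for 4 and below for 6 (median -0.09). The part of such cells in the CFD values was not tested. Of the 10 markers, 5 had means above the median of all log2 values. PPARG, 1 of these, averaged 7.89 in fetal, 8.34 in infant and 8.09 in adult arrays (fetal minus infant -0.45, adjusted p = 0.666). ADIPOQ (adiponectin), at 6.83 to 7.26, and FABP4, a fatty acid carrier, at 6.68 to 7.23, lay below that median in all arrays. In the rhesus annotation CFD lies beside ELANE, PRTN3 and AZU1, which encode granule proteins of neutrophil precursors. ELANE ran from 7.05 to 7.41 in infant, 7.19 to 7.55 in fetal and 7.54 to 8.20 in adult arrays. Adult array 3 was the highest, and the mean was lowest in infant arrays, where CFD was highest. ELANE differed by -0.58 for infant minus adult (adjusted p = 0.465) and by 0.16 for fetal minus infant (adjusted p = 0.869). PRTN3 and AZU1 differed by -0.02 and 0.05 between infant and adult arrays (adjusted p = 0.993 and 0.972).

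**Figure D2:**
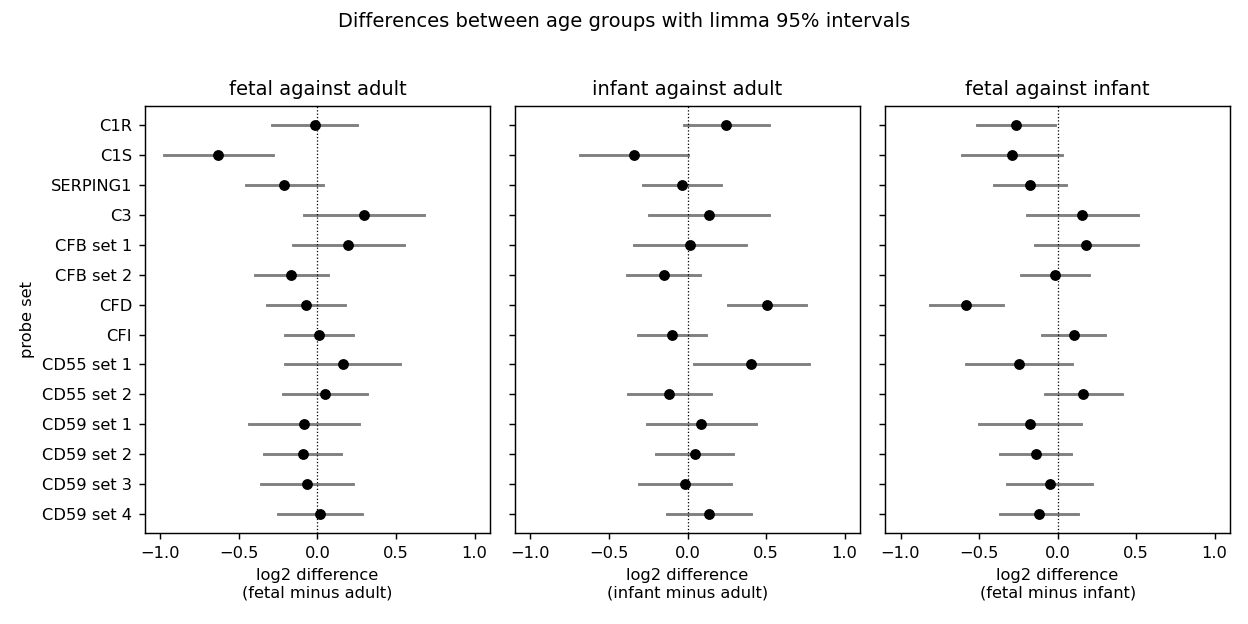
Log2 difference between age groups (horizontal axis, first group minus second) for the 14 complement probe sets (vertical axis), one panel per comparison. Points are limma estimates and lines are their 95% intervals, unadjusted for the number of probe sets. CFD lies at 0.51 and -0.58 in the comparisons with infants and C1S at -0.63 between fetal and adult arrays, while most other intervals include 0.

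C3 encodes the central component, from which all pathways make the opsonin C3b. Its probe set (217767_at) read 7.39, 7.33, 7.60 and 8.09 in fetal, 7.22, 7.21, 7.71 and 7.62 in infant, and 7.34, 7.16 and 7.42 in adult arrays. Fetal array 4, from a newborn donor, was highest, and infant arrays 3 and 4 lay above infant arrays 1 and 2 by more than the adult arrays spread. Means were 7.60 ± 0.35 (SD, n = 4), 7.44 ± 0.26 (SD, n = 4) and 7.31 ± 0.13 (SD, n = 3) in fetal, infant and adult arrays. The fetal-to-adult difference of 0.29 (interval -0.09 to 0.68) did not pass (adjusted p = 0.677) and stood at 0.13 without fetal array 4.

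Within the fetal group, both newborn arrays lay above both gestation day 120 arrays for C3, at means of 7.84 and 7.36 (n = 2 each). The difference of 0.49 (interval 0.05 to 0.92) did not pass (adjusted p = 1), and it was 0.24 without fetal array 4 and 0.73 without fetal array 3. Of the 14 probe sets 0 passed between newborn and gestation day 120 arrays (0% of all passed) and 1, C3, had an unadjusted p under 0.05, against 1.81% of all. For 5 of 14 the arrays did not overlap, against 28.8% of all probe sets. These were C3 and C1R, with newborn higher, and CFD, CFB set 1 and CD59 set 3, with newborn lower.

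CFB encodes factor B, the protease subunit of the alternative pathway convertase, and CFI encodes factor I, which degrades C3b and C4b. CFB set 1 (211920_at) ran from 8.20 to 8.55 in fetal, 7.95 to 8.44 in infant and 7.81 to 8.55 in adult arrays, and the 3 adult values, 7.81, 8.32 and 8.55, covered nearly the whole range of the other groups. Its fetal-to-adult difference was 0.20 (interval -0.16 to 0.55, adjusted p = 0.789). CFB set 2 (202357_s_at) went the opposite way, at -0.17 (interval -0.40 to 0.07, adjusted p = 0.711), and the 2 sets correlated at r = -0.299 over the 11 arrays. C2, the gene next to CFB and its counterpart in the classical pathway, lay between 8.56 and 8.81 in all arrays, with an adjusted p of at least 0.819 in each comparison of ages. CFI (203854_at) had the narrowest range of the 14 probe sets, 6.99 to 7.28, below the median of all log2 values, and its fetal-to-adult difference was 0.01 (interval -0.21 to 0.22, adjusted p = 0.994).

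CD55 (decay-accelerating factor) dismantles convertases at the cell surface, and CD59 (protectin) blocks assembly of the membrane attack complex. CD55 set 1 (201926_s_at) read 7.99, 7.81, 7.84 and 8.44 in fetal, 8.05, 8.20, 8.16 and 8.64 in infant, and 7.79, 7.71 and 8.08 in adult arrays. Infant array 4 and fetal array 4 were highest and adult array 2 lowest, and infant and adult arrays overlapped only through infant array 1 and adult array 3. The infant-to-adult difference of 0.41 (SE 0.17, interval 0.04 to 0.77), 1.32-fold, did not pass (adjusted p = 0.767), and it was 0.19 without adult arrays 1 and 2. CD55 set 2 (201925_s_at), dimmer at 6.72 to 7.22, differed by -0.12 (interval -0.38 to 0.15, adjusted p = 0.917), and the 2 sets correlated at r = 0.105.

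CD59 set 1 (200984_s_at) read 8.48, 8.26, 8.37 and 8.13 in fetal, 8.80, 8.75, 8.04 and 8.36 in infant, and 8.49, 8.30 and 8.41 in adult arrays. Infant arrays 1 and 2 were highest and infant array 3 lowest of all arrays, so the spread within infants (SD 0.36) exceeded that within fetal (0.15) or adult (0.10) arrays. Group means of 8.31, 8.49 and 8.40 in fetal, infant and adult arrays differed by at most 0.18 (fetal minus infant, interval -0.50 to 0.15, adjusted p = 0.868). Infant arrays 1 and 2 also stood apart on the first principal component together with adult arrays 1 and 2, which read 8.49 and 8.30 for this set, and the part of that split in the CD59 values was not tested. Means of the other 3 sets were dimmer than the median over all probe sets. Set 4 (212463_at) followed set 1 at r = 0.749 and set 3 (200985_s_at) at r = 0.681 over the 11 arrays, whereas set 2 (200983_x_at) correlated with the other 3 at -0.052 to 0.108. In each comparison 0 of the 4 passed, the smallest adjusted p between age groups being 0.839.

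**Figure D3:**
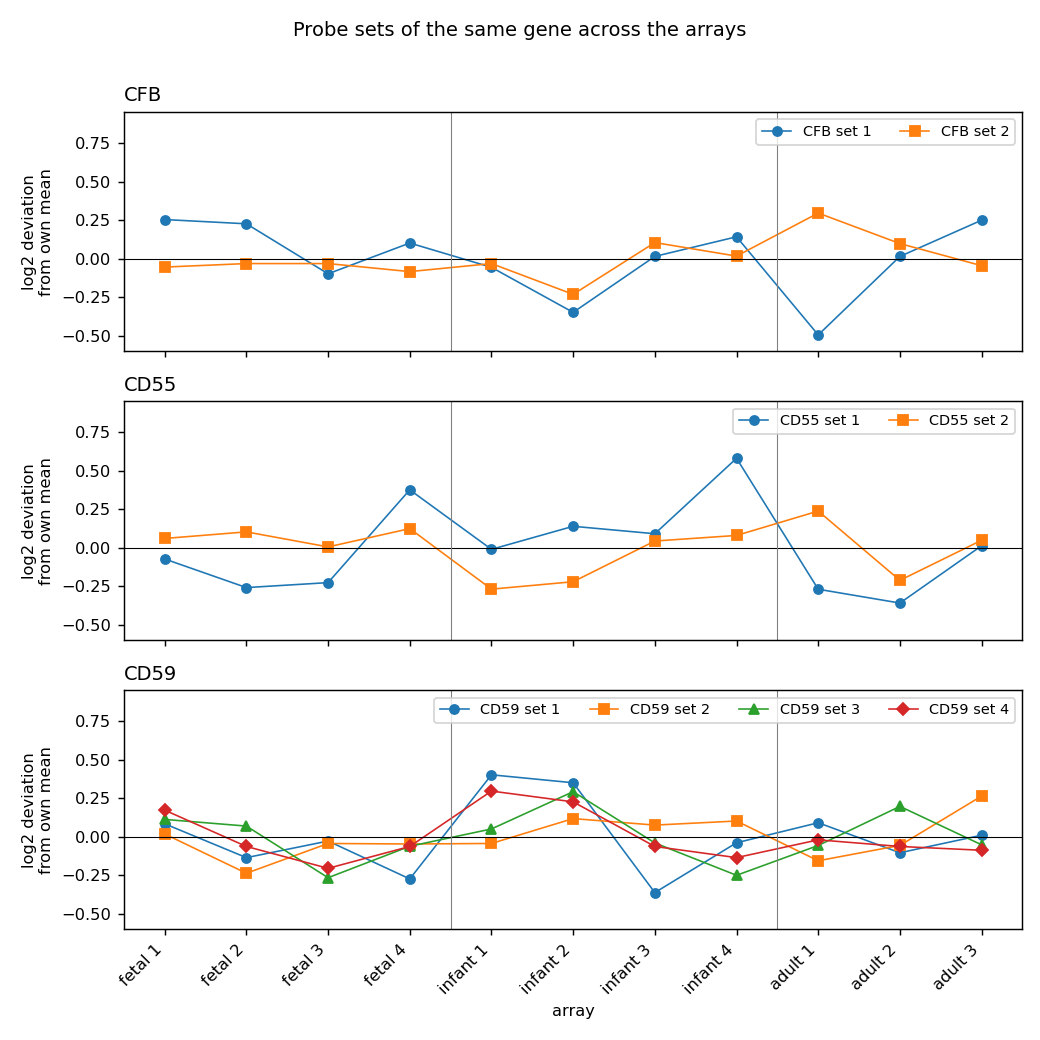
Log2 deviation of each probe set from its own mean over the 11 arrays (vertical axis) for the 3 genes with several probe sets, by array (horizontal axis, fetal, infant and adult separated by vertical lines). CD59 sets 1 and 4 move together (r = 0.749), with both high in infant arrays 1 and 2, while the sets of CFB diverge in adult array 1.

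In no comparison did all 14 probe sets differ in the same direction. Between fetal and adult arrays 6 differences were above and 8 below 0, with a median of -0.04 against -0.01 over all probe sets. Infant minus adult differences were above 0 for 8 and below for 6, with a median of 0.03 against -0.01. For fetal minus infant 4 were above and 10 below 0, with a median of -0.13 against 0.01, and the 4 sets of CD59 share a gene. Among the 9 brightest sets, 36 pairs gave correlations over the 11 arrays from -0.669 (C3 with CD59) to 0.769 (C1R with CD55), with 21 above and 15 below 0. After the group means were taken off, SERPING1 and CD55 gave the highest value, r = 0.786, and C3 and CD59 the lowest, r = -0.692. These are descriptions over arrays that share a normalisation, with no test.

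**Figure D4:**
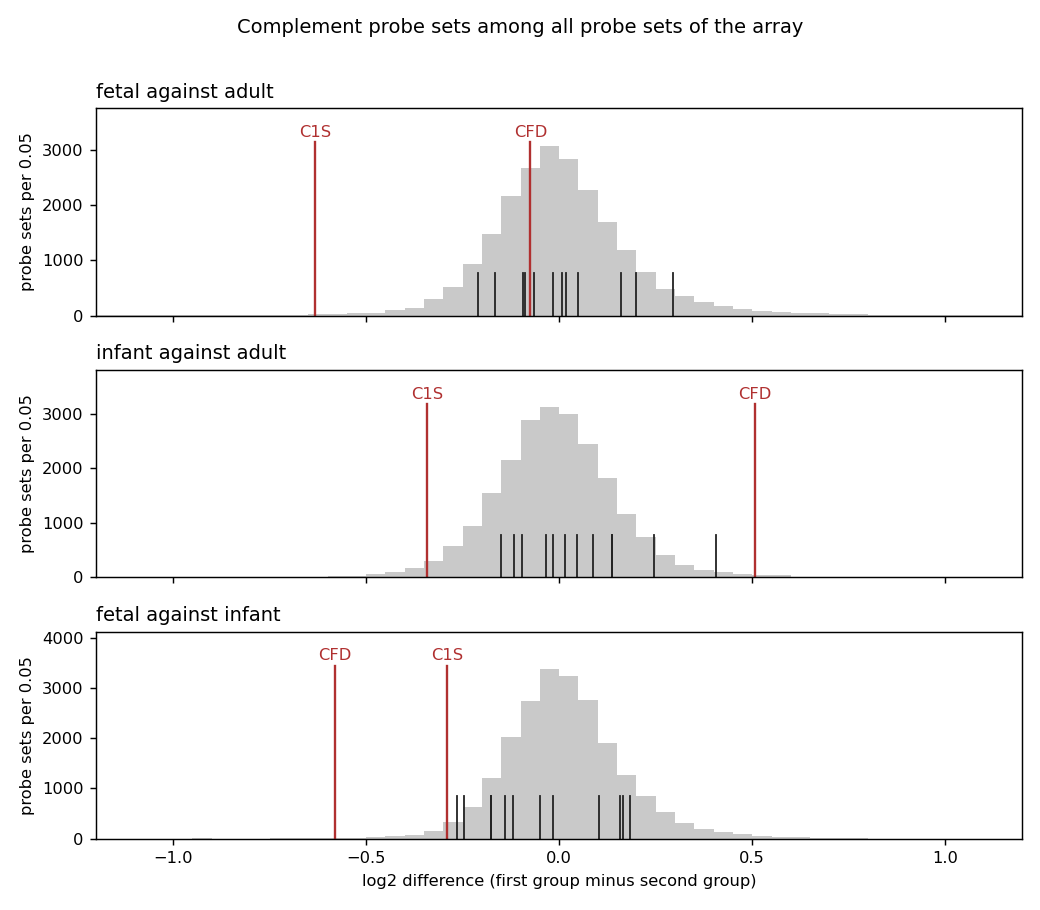
Number of probe sets (vertical axis) by log2 difference (horizontal axis, bins of 0.05, with the outermost differences beyond the axis not drawn) for all 22215 probe sets, one panel per comparison, with the 14 complement probe sets as vertical lines. C1S and CFD, labelled in red, lie in the tails at -0.63 (fetal minus adult), 0.51 (infant minus adult) and -0.58 (fetal minus infant), and most of the others lie within the bulk.

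Other genes of the complement system did not pass either. Of 53 listed, 43 had a probe set with 1 symbol, of which 18 read above the median of all log2 values, and 0 passed in either direction in each comparison. The other listed genes were not analysed here. Unadjusted p-values under 0.05 were reached by 2 higher and 2 lower between fetal and adult, 2 and 2 between infant and adult, and 3 and 1 between fetal and infant arrays. Over all probe sets 8.96%, 6.19% and 6.87% reached them in these comparisons, in either direction. Median differences were -0.03, -0.002 and -0.02, near those of all probe sets. VSIG4, a C3b receptor of macrophages, had the smallest p (infant minus adult -0.41, SE 0.10, adjusted p = 0.375). It read lower in infant arrays, at 7.26 to 7.52 against 7.80 to 7.92 in adult arrays. Those groups did not overlap, as for 4.98% of all probe sets in either direction. FCN1, which encodes a lectin that starts the lectin pathway, was next in that direction, at -0.43 (adjusted p = 0.680), and C1QA, a chain of C1q, differed by 0.24 (adjusted p = 0.733).

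CLU, which encodes clusterin, a fluid-phase inhibitor of the membrane attack complex, ran from 9.20 to 9.70 in infant, 8.92 to 9.41 in fetal and 8.31 to 9.31 in adult arrays. Adult array 3 was the lowest, and the infant-to-adult difference of 0.53 did not pass (adjusted p = 0.744) and was 0.22 without that array. CALR, the chaperone that can act as a C1q receptor at the surface, read 11.67 to 11.85 in fetal and 11.03 to 11.64 in adult arrays (difference 0.48, adjusted p = 0.487). C1QBP, a C1q-binding protein found mainly in mitochondria, differed by 0.44 (adjusted p = 0.557), or by 0.17 without adult array 3. On the lower side in fetal arrays stood MASP2, a protease of the lectin pathway, at -0.32, and C4BPB, a chain of the C4b-binding protein, at -0.22 (adjusted p = 0.475 and 0.513). Against infant arrays the fetal arrays differed by 0.51 for C1QBP, 0.48 for CALR, -0.24 for C4BPB and -0.41 for CLU (adjusted p from 0.657 to 0.725). Between newborn and gestation day 120 arrays the smallest p-values belonged to CFHR4 and C5AR2, at 0.40 and 0.24, and to COLEC11 and C8A, at -0.24 and -0.20, each with adjusted p = 1. With 1 array left out at a time, COLEC11 ran from -0.369 to -0.119 and C8A from -0.298 to -0.0986.

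Cytokines, receptors and transcription factors known to control complement genes gave 0 calls among 21 measured of 22 listed. CEBPD, a transcription factor of the acute-phase response, read 9.53 to 9.84 in fetal, 9.38 to 10.02 in infant and 9.12 to 9.48 in adult arrays, with differences from adults of 0.34 in fetal and 0.34 in infant arrays (adjusted p = 0.564 and 0.805). TNFRSF1A, a receptor for tumour necrosis factor, differed by 0.41 and RELA, a subunit of NF-kappa-B, by -0.36 between fetal and adult arrays (adjusted p = 0.445 and 0.453). The glucocorticoid receptor gene NR3C1 differed by -0.25 in fetal and -0.28 in infant against adult arrays (adjusted p = 0.589 and 0.774). Infant minus adult differences were 0.26 for NR1H3 and -0.21 for IFNGR2 (adjusted p = 0.806 and 0.844), and fetal minus infant differences were 0.23 for OSMR, 0.29 for TNFRSF1A, -0.33 for RELA and -0.19 for STAT3 (adjusted p from 0.666 to 0.803). Newborn minus gestation day 120 differences were 0.32 for IRF1, 0.28 for NR3C1, -0.41 for TNFRSF1A and -0.14 for IFNGR1, with adjusted p = 1 for each. Leaving out 1 array brought the fetal-to-adult differences to -0.24 for RELA (without adult array 1) and -0.16 for NR3C1 (without fetal array 1). It brought the infant-to-adult differences to 0.14 for NR1H3 (without adult array 1) and -0.13 for IFNGR2 (without infant array 2). The fetal-to-infant differences were -0.08 for STAT3 without infant array 2 and 0.18 for TNFRSF1A without fetal array 1. Newborn minus gestation day 120 differences, with 1 array left out at a time, ran from 0.169 to 0.475 for IRF1 and 0.13 to 0.421 for NR3C1. They ran from -0.548 to -0.279 for TNFRSF1A and -0.241 to -0.0448 for IFNGR1.

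Probe sets whose values ran most like those of the members over the 11 arrays were sought among 9647 to 9649 single-symbol probe sets at or above the median brightness. For CFD these were CD99 (r = 0.932) and BMP1 (r = 0.846), and for C1S they were SLC47A1 (r = 0.906) and MXRA7 (r = 0.902). C1R was nearest to MAT2A (r = 0.909) and HEXA (r = 0.862), C3 to SMAD7 (r = 0.924) and PTGS1 (r = 0.911), and CFB to FAT2 (r = 0.930) and TWF2 (r = 0.897). SERPING1 ran with LAD1 (r = 0.893) and TUG1 (r = 0.891), CFI with TRMT2B (r = 0.849) and EYA2 (r = 0.844), CD55 with CCNL1 (r = 0.899) and TMPRSS11D (r = 0.885), and CD59 with CCN5 (r = 0.928) and SNX3 (r = 0.922). No member was among the nearest genes of another. Such values are the highest of all candidates, come from arrays that share a normalisation, and carry no test.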

How the data were processed

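RNA of 11 cultures was labelled with biotin and hybridised to 1 array each. Per the submitters' processing notes, the authors made the deposited intensity of each probe set with RMA (no version given), which corrects background, normalises between arrays and summarises probes. Probe-level signals and detection calls were not used here. Deposited intensities ran from 75.3 to array maxima of 27962 to 36519, so log2 was taken. Human probes read monkey RNA, so a level also reflects probe match, and levels of different probe sets were not compared beyond dim or bright. Symbols came from the platform annotation (1 symbol for 19065 probe sets, several for 1043, none for 2107).

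Group means were fitted to all 11 arrays together with limma 3.58.1 (lmFit, eBayes; R 4.3.3), with two-sided contrasts, an F test, and a fit with 1 mean per donor stage for newborn against gestation day 120. Calls needed an adjusted p under 0.05, from limma, by the Benjamini-Hochberg method across the 22215 probe sets. Intervals are limma's at 95%, for each probe set alone. The number of arrays limits precision. The fits were tested on simulated data with independent noise. Recovery was required there only for a shift larger than any member difference, so the requirement does not cover shifts of the members' size.

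Members and lists were chosen with earlier results of these data known. Every member probe set is described. Of 43 other complement genes and 21 inducers, by their brightest single-symbol probe set, called ones and the 2 of smallest p in each direction per comparison are named. For each member the 2 genes of highest Pearson r are named. Marker lists covered macrophages and leukocytes, B and plasma cells, adipocytes, endothelium, erythroid cells and mesenchymal stromal cells, and 0 of their genes passed in any comparison by their brightest probe set. Neighbours were the 3 genes on each side in the RefSeq annotation, 23 of them measured, of which 0 passed between age groups. Promoter motifs were not analysed here.

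Replicate numbers are shared between titles. Deviations from group means of same-numbered infant and adult arrays correlated at 0.145, 0.131 and 0.204, which passed the check for pairs. Those of fetal with adult arrays (-0.096 to 0.068) and fetal with infant arrays (0.008 to 0.275) did not. The labels name no pairing. Same-numbered infant and adult arrays also lay on the same side of the first principal component, and the part of that split in the correlations was not tested. The fits stayed without a block, as the design had been set. Alternatives were centring, quantile normalisation, an offset of 50, a filter on dim probe sets, a replicate block, array weights, a trended prior, left-out arrays and fits of the compared groups only.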

Additional observations from a re-analysis of the deposited data

How the results depend on the processing

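The count of called member probe sets was 0 in every fit run, for each comparison and for the F test. Over 36 member differences (9 brightest probe sets in 4 comparisons) and their alternatives, 563 values, all stayed short of the threshold, with a smallest adjusted p of 0.0827 (C1S, fetal against adult, without fetal array 4, where the other settings gave up to 0.482). Centring and quantile normalisation shifted no array by more than 0.0217 at the median of its probe sets, and neither turned a direction. Single differences moved further, as that of C1S between fetal and adult arrays went from -0.631 to -0.732 with quantile normalisation. The C1S fetal-to-adult difference ran from -0.73 to -0.55, the CFD infant-to-adult difference from 0.40 to 0.56 and the CFD fetal-to-infant difference from -0.64 to -0.45. CFI lay below the filter on dim probe sets and has no value there.

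Differences turned sign in 31 values of 13 results, and the cause was not tested. Neither these results nor any value among them passed the threshold, and with all arrays they reached 0.24 (CD55, newborn minus gestation day 120) and 0.20 (CFB, fetal minus adult) in size. With array weights C1R stood at 0.00385 between fetal and adult arrays. Without adult arrays 1 and 2 the fetal-to-adult differences were -0.129 for CFB and -0.0586 for CD55 (the same with infant arrays 1 and 2 also left out), and that of infants and adults for CFB was -0.312. With all 4 arrays left out, infant-to-adult differences were -0.171 for CFB and -0.211 for CD59, and fetal-to-infant differences were -0.0658 for C3 and 0.112 for CD59. With newborn arrays left out, fetal-to-adult differences were 0.0603 for CFD and -0.0541 for CFI, and that of fetal and infant arrays for C3 was -0.0852. With the replicate block CFB stood at -0.016 between infant and adult arrays, and the block gave 0 calls among members, so it changed no member's call. It moved the calls over all probe sets from 29 to 221 between fetal and adult, 4 to 9 between infant and adult and 0 to 2 between fetal and infant arrays.

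Leaving out 1 array at a time, fetal-to-adult differences lay between -0.0822 and 0.0352 for C1R, -0.0113 and 0.361 for CFB and -0.049 and 0.07 for CFI. Infant-to-adult differences lay between -0.194 and 0.178 for CFB, -0.123 and 0.0192 for SERPING1 and -0.0161 and 0.239 for CD59. The fetal-to-infant difference of C3 lay between -0.00508 and 0.249. Newborn minus gestation day 120 differences lay between -0.187 and 0.0683 for SERPING1, -0.0929 and 0.332 for C1S and -0.0606 and 0.542 for CD55. For the 32 differences of named list genes, leaving out 1 array at a time, chosen after seeing the data, turned no sign and moved 13 by over 1.5 times (smallest adjusted p = 0.181). CFI and all but the brightest sets of CD55 and CD59 were dim. CFD, C3 and CFB set 2 averaged 7.39, 7.46 and 7.49, close to the median of all log2 values. Of the named list genes C1QA, FCN1, C4BPB, CFHR4, C5AR2, C8A, NR1H3, OSMR and IFNGR1 had means below that median. Low signal limits what a difference in any of these can show.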
